A study of Mus musculus with 18 samples.

Results

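The genes described here are 50 mouse genes whose products work in the nucleolus on the first steps of ribosome assembly. They were listed by the known roles of their products, with earlier results of these data known. In the deposited tables they were found by Entrez gene number. All 50 were among the 28096 genes counted and all 50 were among the 14161 genes expressed highly enough to test. By role they comprised 7 RNA polymerase I (Pol I) subunits and initiation factors, 3 box C/D and 4 box H/ACA small nucleolar ribonucleoprotein (snoRNP) proteins, 4 nucleolar chaperones and scaffold proteins, 13 components of the small subunit processome, 4 late 40S and 14 60S assembly factors, and the RNA helicase DDX21.

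Ribosomes begin in the nucleolus, where Pol I transcribes a long precursor ribosomal RNA. The box C/D and box H/ACA snoRNPs modify this precursor, the small subunit processome folds and cleaves the part that becomes the 40S subunit, and a further set of GTPases, helicases and scaffold proteins builds the 60S subunit. A resting lymphocyte has a small nucleolus and makes few ribosomes, and growth before the first division is known to require many more of them, with MYC as a known activator of this gene program.

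The RNASeq data comprised 18 libraries of splenic B cells, 3 for each of 6 groups. The cells came from C57BL/6 N mice at least 8 weeks old, either WT or Ubqln1-/-. They were kept without stimulation (resting) or stimulated for 4 hr. The stimulus was either anti-IgM F(ab)2 at 10 μg/mL, which crosslinks the B cell receptor (BCR), or LPS of E. coli K12 at 20 μg/mL, which engages Toll-like receptor 4 (TLR4). Knockout mice lacked exon 2 of Ubqln1 in every tissue, since Cre acted in embryonic stem cells, so B cells developed with the deletion. Ubqln1 encodes a ubiquitin-binding shuttle and chaperone protein. Wells of an experiment were pooled before RNA purification, and each library is 1 experiment. The comparisons asked how these genes responded to each stimulus in each genotype, whether LPS and anti-IgM differed, and whether Ubqln1-/- cells differed from WT cells.

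Promoter sequences were examined because the members moved together and because MYC binds the E-box CACGTG, which is its own reverse complement and so reads alike on both strands. RefSeq promoters of GRCm38.p6, from 250 bases before to 50 bases after the transcript start, were found for 44 of the 50 genes. CACGTG was present in 8 of these (18.2%), against 11.8% of the 10067 promoters of tested genes, 8.09% of all 27025 promoters and 17.0% of the promoters of genes called higher after anti-IgM in WT cells. The 8 genes fall in 4 of the 8 roles: the Pol I initiation factor Rrn3, the processome genes Wdr43, Utp20 and Imp4, the late 40S factors Ltv1 and Tsr1, and the 60S factors Pes1 and Nop2. The 30-base windows around each match are shown 5′ to 3′ on the strand of the gene, with the E-box in capitals, so that its flanks and its place can be compared.
Rrn3, chr16:13780472-13780501, + strand: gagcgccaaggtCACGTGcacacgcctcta
Rrn3, chr16:13780639-13780668, + strand: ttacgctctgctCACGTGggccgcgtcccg
Wdr43, chr17:71616220-71616249, + strand: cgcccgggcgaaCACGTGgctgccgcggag
Utp20, chr10:88826765-88826794, - strand: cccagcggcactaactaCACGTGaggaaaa
Imp4, chr1:34439696-34439725, + strand: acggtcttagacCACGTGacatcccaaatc
Ltv1, chr10:13193092-13193121, - strand: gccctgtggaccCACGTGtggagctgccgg
Tsr1, chr11:74898092-74898121, + strand: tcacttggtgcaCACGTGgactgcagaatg
Pes1, chr11:3963965-3963994, + strand: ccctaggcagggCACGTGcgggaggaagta
Nop2, chr6:125131811-125131840, + strand: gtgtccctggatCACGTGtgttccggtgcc

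Rrn3, whose product recruits Pol I to the ribosomal DNA promoter, was the member with a pair of matches, beginning 215 and 48 bases before its transcript start. In Imp4 and Nop2 the match lay 121 and 60 bases before the start, and in the other 5 genes it began within the first 38 bases of the transcript. The 250 bases before the start of Rrn3 are given in full, because both of its matches lie there.
Rrn3, chr16:13780449-13780698, + strand: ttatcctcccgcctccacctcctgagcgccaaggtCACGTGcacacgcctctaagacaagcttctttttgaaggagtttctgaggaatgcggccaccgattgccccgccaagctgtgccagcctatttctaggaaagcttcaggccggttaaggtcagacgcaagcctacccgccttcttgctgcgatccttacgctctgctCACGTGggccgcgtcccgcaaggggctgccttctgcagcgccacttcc
A match describes the letters of these windows and does not show that a factor bound there. The responses of genes with and without the E-box overlapped. After anti-IgM in WT cells the median log2 fold change was 1.52 in the 8 genes with CACGTG (range 0.79 to 1.71) and 1.46 in the 36 without it (0.34 to 2.44), and after LPS it was 1.32 against 1.41. Rrp1b, the member with the largest response, was among those without it.

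The libraries held between 15368941 and 41072854 counts, with a median of 23257531. Ubqln1 mRNA stood at 234 ± 3.98 CPM (counts scaled to library size, mean ± SD, n = 3) in resting WT cells and 96.8 ± 8.22 CPM in resting Ubqln1-/- cells, and was lower in every Ubqln1-/- library than in every WT library. The count of a gene covers all of its exons, not exon 2 alone. All 8 B cell markers were present in all groups. Their summed level was 7380 to 8810 CPM in resting WT cells, 2500 to 3140 CPM after anti-IgM, where all 8 fell, and 5830 to 6940 CPM after LPS, where 4 of 8 fell. Summed over 7 T cell markers, WT libraries held 46.3 to 60 CPM at rest, 122 to 211 CPM after anti-IgM, and 32.4 to 45.5 CPM after LPS. Of the 2 T cell markers high enough to test, Lck rose after anti-IgM, by 1.65 in WT and 1.63 in Ubqln1-/- cells on the log2 scale. The other, Cd8a, rose after LPS, by 1.07 and 1.06, and fell by 1.09 after anti-IgM in Ubqln1-/- cells. The 7 myeloid markers were lower with stimulation, at 21.7 to 49.1 CPM at rest, 13.4 to 16.2 CPM after anti-IgM and 11.3 to 17.9 CPM after LPS in WT cells, and at 27.9 to 51.3, 14 to 16.2 and 15.3 to 21 CPM in Ubqln1-/- cells. Of the 4 tested, Itgam and Adgre1 fell after anti-IgM and all 4 fell after LPS, in both genotypes. The 4 NK cell markers reached at most 0.598 CPM, and the 7 erythroid and platelet markers 2.61 to 5.69 CPM over all libraries. T cell markers in Ubqln1-/- libraries spanned 41.2 to 67.5 CPM at rest, 126 to 223 CPM after anti-IgM and 36.1 to 49.2 CPM after LPS. Cd3g was at 0 counts throughout the WT resting and WT LPS libraries, Cd3e throughout the Ubqln1-/- resting and LPS libraries, and Ncr1 and Gzma throughout the WT LPS and Ubqln1-/- LPS libraries, respectively. Whether the marker changes have a part in the results below was not tested.

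All 50 genes rose after each stimulus in each genotype. After anti-IgM in WT cells the median log2 fold change was 1.46, or 2.74-fold, and the range ran from 0.34 (Imp3) to 2.44 (Rrp1b), whereas the median of all tested genes was -0.01. Genes were called at an adjusted p under 0.05 (edgeR's quasi-likelihood test, Benjamini-Hochberg over all 14161 tested genes). By this rule 32.4% of all tested genes were higher after anti-IgM in WT cells, 32.9% after anti-IgM in Ubqln1-/- cells, 31.2% after LPS in WT cells and 30.6% after LPS in Ubqln1-/- cells, against 50 of 50 members in each. Each library held the RNA of many cells. A rise in RNA per cell and a rise in the share of cells that carry the RNA therefore cannot be told apart. The values are relative to the library total and say nothing of the RNA content of a cell.

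The members also lay high among the genes that rose. With a log2 fold change over 1 required as well, 43 of 50 passed after anti-IgM in WT cells (9.49% of all genes), 42 in Ubqln1-/- cells (9.6%), and 40 after LPS in each genotype (7.84% of all genes in WT, 7.82% in Ubqln1-/- cells). The median log2 fold change of all genes called higher after anti-IgM in WT cells was 0.67. At the thresholds used in the study, a log2 fold change over 2 with an adjusted p under 0.001, few members passed: 4 after anti-IgM in WT cells (1.72% of all genes), 3 in Ubqln1-/- cells (1.79%), 2 after LPS in WT cells (1.36%) and 5 in Ubqln1-/- cells (1.22%). Rrp1b was the member with the largest response to anti-IgM in WT cells, yet it ranked 142 among the tested genes by log2 fold change. The rise was thus broad and moderate.

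**Figure D1:**
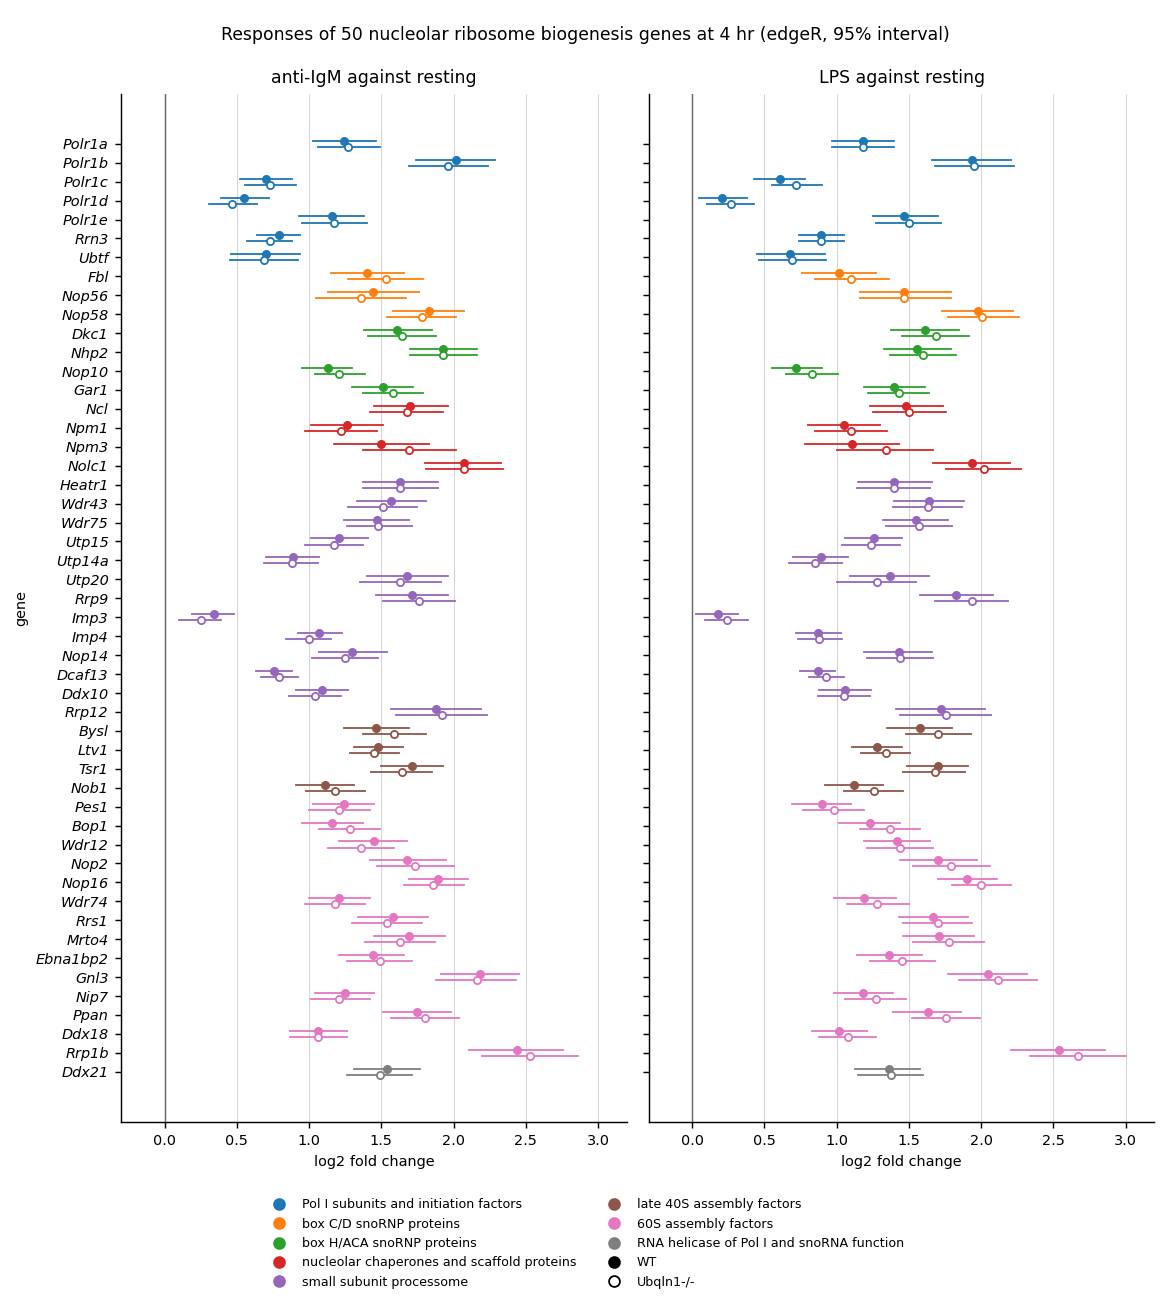
Log2 fold change (horizontal axis) of each of the 50 genes (vertical axis) for anti-IgM against resting cells (left) and LPS against resting cells (right), with points coloured by role, filled for WT and open for Ubqln1-/- cells, and bars for the 95% interval of the edgeR fit. Every interval lies above 0, Rrp1b is farthest to the right at 2.44 to 2.67 and Imp3 is nearest to 0 at 0.18 to 0.34.

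The rise was also seen sample by sample. For all 50 genes every anti-IgM library lay above every resting library of its genotype, in WT cells (33.4% of all tested genes) and in Ubqln1-/- cells (35.6%). After LPS this held for all 50 genes in Ubqln1-/- cells (33.5% of all genes) and for 48 in WT cells (31.8%), where Polr1d and Imp3 overlapped. These 2 genes also lost the call for LPS in WT cells when 1 of 4 libraries was left out (resting replicate 1 or 3, or LPS replicate 1 or 2). Without them Polr1d ranged down to 0.16 and Imp3 to 0.12 on the log2 scale, with adjusted p up to 0.108 and 0.164 (edgeR).

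Rrp1b, which encodes a nucleolar protein of 60S assembly (Entrez 72462, chr17:32036162-32062865), showed the largest response to either stimulus. Its level in resting WT cells was 5.74, 7.6 and 7.08 RPKM (counts scaled to library size and exonic length), and rose to 32.2, 41.5 and 37.4 RPKM after anti-IgM and 41.2, 46.3 and 31.3 RPKM after LPS. The resting and stimulated libraries were far apart, and the stimuli overlapped. Ubqln1-/- libraries gave 5.88, 7.48 and 6.13 RPKM at rest, 34.2, 40.6 and 37.8 RPKM after anti-IgM and 40.7, 47.1 and 35.8 RPKM after LPS. The fitted rise in WT cells was 5.41-fold after anti-IgM (95% interval 4.31 to 6.8) and 5.8-fold after LPS (4.62 to 7.28).

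Imp3, a component of the small subunit processome that binds U3 snoRNA (Entrez 102462, chr9:56937500-56938398), stood at the other end. It measured 45.5, 51.2 and 42.9 RPKM in resting WT cells, 61.6, 56.8 and 58.3 RPKM after anti-IgM and 54.6, 54.9 and 48.6 RPKM after LPS. Resting replicate 2 lay above LPS replicate 3, and all anti-IgM libraries lay above the resting ones. Its level without Ubqln1 was 48.3, 45.0 and 47.2 RPKM at rest, 56.1, 52.7 and 57.7 RPKM after anti-IgM and 55.5, 55.4 and 55.1 RPKM after LPS. The fitted rise was 1.26-fold after anti-IgM (95% interval 1.14 to 1.4, adjusted p = 0.000392) and 1.13-fold after LPS (1.02 to 1.25, adjusted p = 0.0331) in WT cells. A high resting level was no general mark of a small response: across the 50 genes the correlation of log2 RPKM in resting Ubqln1-/- cells with the log2 response to anti-IgM in WT cells was -0.178 (Pearson) and -0.105 (Spearman), over genes that share their libraries.

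The Pol I group held both strong and weak responders. Its 7 members rose by a median of 0.79 on the log2 scale after anti-IgM and 0.89 after LPS in WT cells. Polr1b, the second-largest subunit, rose by 2.02 after anti-IgM and Polr1a, the largest subunit, by 1.24, whereas Polr1c and Polr1d, which Pol I shares with Pol III, rose by 0.7 and 0.55. Rrn3 rose by 0.79. Ubtf, which encodes the factor UBF that binds ribosomal DNA and had the highest level of the group, measured 52.5, 68.0 and 59.8 RPKM at rest, 88.5, 107 and 97.6 RPKM after anti-IgM and 92.5, 110 and 86.5 RPKM after LPS in WT cells. Every stimulated library lay above every resting one, by 1.63-fold after anti-IgM (95% interval 1.38 to 1.91) and 1.6-fold after LPS (1.36 to 1.89). The Ubqln1-/- libraries measured 54.0, 63.4 and 60.7 RPKM, then 86.7, 103 and 97.4 RPKM after anti-IgM and 90.2, 106 and 91.7 RPKM after LPS, again without overlap between rest and stimulus.

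The snoRNP proteins rose together. Box C/D snoRNPs carry out 2′-O-methylation. Of their proteins, the methyltransferase gene Fbl rose by 1.4 on the log2 scale after anti-IgM in WT cells. The core protein genes Nop56 and Nop58 rose by 1.44 and 1.83. Nop56 measured 60.8, 82.1 and 79.8 RPKM in resting WT cells, 170, 219 and 217 RPKM after anti-IgM and 187, 250 and 181 RPKM after LPS. The lowest stimulated library was above 2 times the highest resting one, as it was in Ubqln1-/- cells, with 66.4, 81.0 and 73.5 RPKM at rest, 166, 202 and 198 RPKM with anti-IgM and 188, 236 and 189 RPKM with LPS. In Fbl and Nop56, 19.7% and 18.6% of the 50-base stretches of the transcripts also occur in other annotated genes, so their counts carry some uncertainty.

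Among the box H/ACA proteins, which carry out pseudouridylation, the pseudouridine synthase gene Dkc1 and its partner Gar1 rose by 1.61 and 1.51 after anti-IgM in WT cells. Nhp2 rose from 39.9, 57.1 and 50.9 RPKM to 178, 198 and 187 RPKM after anti-IgM and to 149, 162 and 126 RPKM after LPS in WT cells, and from 45.6, 47.5 and 46.4 RPKM to 178, 174 and 180 RPKM and to 135, 155 and 133 RPKM in Ubqln1-/- cells. In both genotypes the lowest anti-IgM library exceeded the highest LPS library. The fold over resting WT cells was 3.8 (95% interval 3.24 to 4.46) after anti-IgM and 2.95 (2.52 to 3.46) after LPS. Nop10, the smallest of these proteins (Entrez 66181, chr2:112261926-112262898), had the weakest response of the 4.

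**Figure D2:**
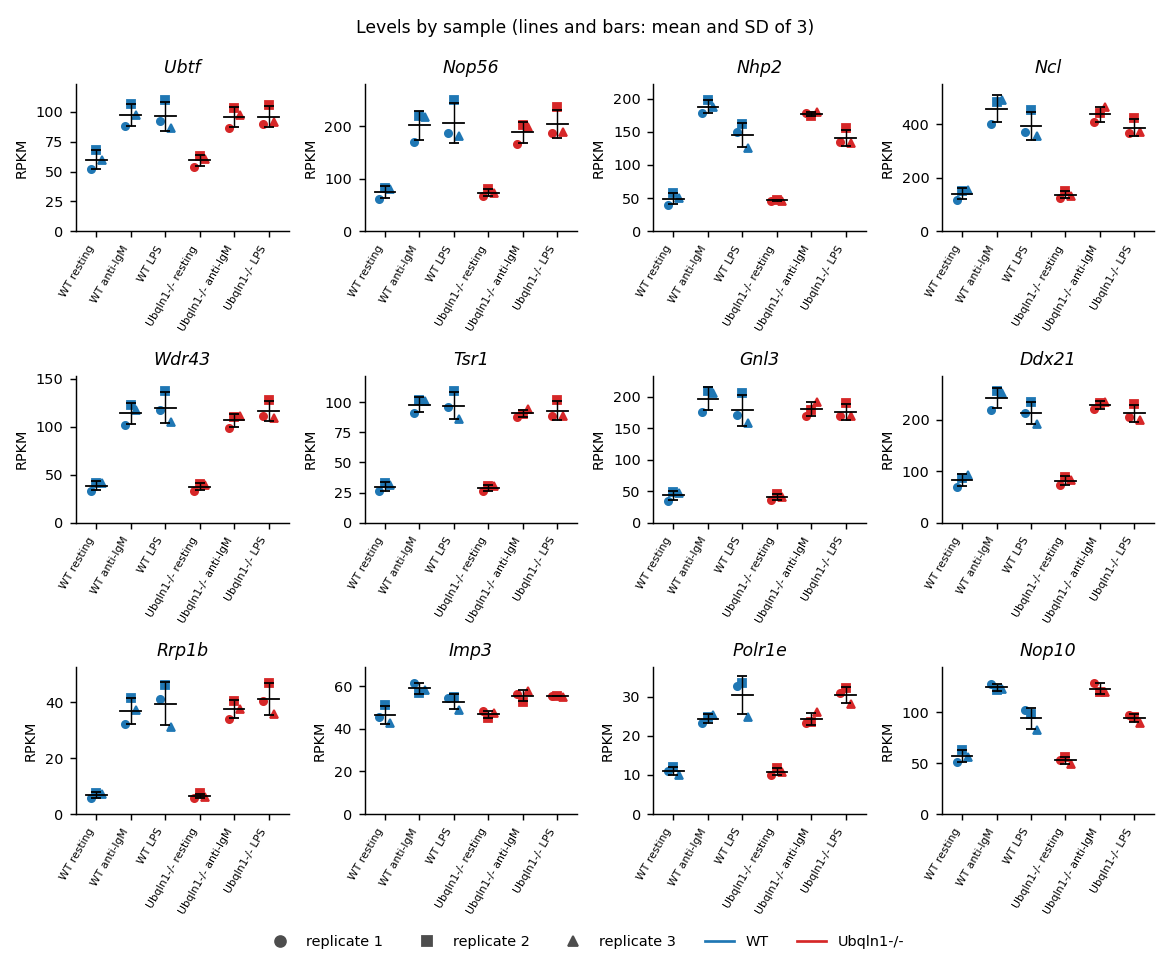
Level in RPKM (vertical axis, from 0) of 12 genes in each library, by group (horizontal axis), with the marker shape for the replicate number, blue for WT, red for Ubqln1-/- cells, and lines with bars for the mean and SD of 3. Resting libraries sit lowest in every panel except Imp3, where resting and LPS libraries of WT cells overlap, and Nhp2 and Nop10 are lower with LPS than with anti-IgM.

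Nucleolar chaperones and scaffold proteins held the most abundant mRNA of the list. Ncl, which encodes nucleolin (Entrez 17975, chr1:86344719-86359455), supplied 23.5% of all counts of the 50 genes. It measured 117, 152 and 153 RPKM in resting WT cells, 399, 481 and 490 RPKM after anti-IgM and 370, 453 and 356 RPKM after LPS. The Ubqln1-/- libraries held 126, 150 and 133 RPKM at rest, 406, 442 and 462 RPKM after anti-IgM and 367, 424 and 370 RPKM after LPS. All stimulated libraries exceeded 2 times any resting library, and the fitted rises in WT cells were 3.25-fold (95% interval 2.72 to 3.88) and 2.8-fold (2.35 to 3.33). Nolc1, a scaffold that binds snoRNPs, rose by 2.07 on the log2 scale after anti-IgM, and the nucleophosmin genes Npm1 and Npm3 rose by 1.26 and 1.5. The last 2 values are uncertain, since 24.3% and 25.6% of the 50-base stretches of Npm1 and Npm3 transcripts are shared with other annotated genes.

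The 13 small subunit processome genes rose by a median of 1.3 after anti-IgM and 1.37 after LPS in WT cells. Rrp12, a large repeat protein, led after anti-IgM with 1.88 and Rrp9, a U3 snoRNP protein, after LPS with 1.83. Utp20 and Heatr1, which encode large scaffold proteins, rose by 1.68 and 1.63 after anti-IgM, and Utp14a and Dcaf13 rose by 0.89 and 0.76. Between these lay Rrp9 (1.71), Wdr75 (1.47), Nop14 (1.3), Utp15 (1.21), the helicase gene Ddx10 (1.09) and Imp4 (1.07), a partner of Imp3 on U3. Wdr43, a WD-repeat subunit with the highest level of the group, measured 33.0, 41.1 and 41.2 RPKM at rest, 102, 123 and 117 RPKM after anti-IgM and 117, 137 and 105 RPKM after LPS in WT cells. Without Ubqln1 it was 33.5, 39.9 and 39.1 RPKM, then 98.9, 110 and 111 RPKM after anti-IgM and 111, 128 and 109 RPKM after LPS. Anti-IgM and LPS libraries overlapped and resting libraries stood well below both.

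All 4 late 40S factors rose by more than 1 on the log2 scale after either stimulus in both genotypes. Tsr1, a GTPase-like protein that occupies the immature 40S subunit, measured 25.9, 32.6 and 31.1 RPKM in resting WT cells, 90.8, 102 and 101 RPKM after anti-IgM and 96.1, 109 and 86.2 RPKM after LPS. The Ubqln1-/- values were 26.1, 30.2 and 30.8 RPKM at rest, 87.6, 90.3 and 93.9 RPKM after anti-IgM and 88.3, 102 and 88.7 RPKM after LPS. The stimuli overlapped in both genotypes. Tsr1 rose 3.28-fold after anti-IgM in WT cells (95% interval 2.83 to 3.8), although 29.1% of its 50-base stretches also occur in other annotated genes, foremost Srr. Ltv1 and Bysl, whose products accompany the particle to the cytoplasm, rose by 1.48 and 1.46, and Nob1, the endonuclease that makes the mature end of 18S RNA, rose by 1.11.

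The 60S factors rose by a median of 1.51 after anti-IgM and 1.53 after LPS in WT cells, and 14 of 14 passed a log2 fold change of 1 after anti-IgM. Gnl3, which encodes the GTPase nucleostemin (Entrez 30877, chr14:31012433-31019131), measured 34.5, 48.6 and 46.8 RPKM at rest, 176, 209 and 206 RPKM after anti-IgM and 171, 206 and 159 RPKM after LPS in WT cells. Ubqln1-/- cells gave 35.8, 45.0 and 40.6 RPKM at rest, 170, 179 and 192 RPKM after anti-IgM and 169, 190 and 169 RPKM after LPS. Its fold of 4.54 after anti-IgM (95% interval 3.76 to 5.48) was second to that of Rrp1b, and both stimuli lay far above rest. Pes1, Bop1 and Wdr12, whose products form the PeBoW complex, rose by 1.24, 1.16 and 1.45 after anti-IgM. Nop2, an RNA methyltransferase, rose by 1.68, Nop16 by 1.89 and Ppan by 1.75. Mrto4, which encodes a placeholder for a stalk protein of the 60S subunit, rose by 1.69, Rrs1 by 1.58, Ebna1bp2 by 1.44, Nip7 by 1.25 and Wdr74 by 1.21. In Ddx18, a helicase gene that rose by 1.06, 55.9% of the 50-base stretches occur in other annotated genes, and in Pes1 23.3%, so both values are uncertain.

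Ddx21, an RNA helicase that links Pol I activity with snoRNP function (Entrez 56200, chr10:62580247-62602298), supplied a further 7.34% of the counts of the list. Its level was 70.1, 87.0 and 91.9 RPKM in resting WT cells, 219, 255 and 251 RPKM after anti-IgM and 212, 235 and 192 RPKM after LPS. Its Ubqln1-/- levels were 72.7, 89.5 and 82.8 RPKM at rest, 220, 232 and 235 RPKM after anti-IgM and 206, 231 and 200 RPKM after LPS. The rise in WT cells was 2.91-fold (95% interval 2.49 to 3.4) after anti-IgM and 2.57-fold (2.2 to 3.0) after LPS, and the stimulated libraries overlapped.

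A further 109 genes of the same pathway mostly rose too. After anti-IgM in WT cells 99 of them rose (32.4% of all tested genes), 3 fell (Ttf1, Baz2a and Nop53) and 7 were not called. Their median was 0.88 on the log2 scale. After LPS in WT cells 101 rose (31.2% of all tested genes) and 2 fell. The counts were 100 up (32.9%) and 4 down after anti-IgM in Ubqln1-/- cells, and 100 (30.6%) and 3 after LPS. Of all tested genes, 29.5% were called lower after anti-IgM in both genotypes and 26.8% after LPS in both. The pathway counts above are for each genotype by itself, where the share of all genes called lower was no smaller than these. All 14 RNA exosome genes rose after anti-IgM in WT cells, from 0.21 (Exosc4) to 1.44 (Dis3, a catalytic subunit), as did 31 of 34 other small subunit factors, from Rcl1 at 1.75 down to Ddx52 at 0.05, which was not called.

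Of 40 other 60S factors 38 rose, with Nifk highest at 1.81, and Nop53 fell by 0.37. Of 12 snoRNP assembly factors 11 rose, led by the H/ACA assembly factor Naf1 at 2.04, and Pih1d1 at 0.04 was not called. The most mixed list was that of 9 other genes of Pol I and ribosomal DNA transcription. There the subunit gene Polr1g rose by 1.69, and Baz2a, which encodes a subunit of the complex that silences ribosomal DNA repeats, fell by 0.86 after anti-IgM and by 0.41 after LPS in WT cells. Ttf1, whose product ends Pol I transcription, fell by 0.25 after anti-IgM.

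Summed over the 50 genes, the level in WT cells was 4574, 5792 and 5623 CPM at rest, 13780, 16170 and 15880 CPM after anti-IgM and 13820, 16180 and 12540 CPM after LPS. The Ubqln1-/- sums were 4728, 5537 and 5174 CPM at rest, 13790, 14810 and 15110 CPM after anti-IgM and 13480, 15290 and 13170 CPM after LPS. The resting libraries stood clear of the others, and the genotypes and stimuli overlapped. The mean was 5329 ± 660 CPM in resting WT cells (SD, n = 3) and 15280 ± 1310 CPM after anti-IgM, a ratio of 2.87, and 14180 ± 1850 CPM after LPS, a ratio of 2.66. In Ubqln1-/- cells the ratios were 2.83 and 2.72. The 50 genes took from 0.466% to 1.61% of the counts of a library. Of these counts 48.5% came from 7 genes: Ncl, Ddx21, Heatr1, Nolc1, Ubtf, Utp20 and Wdr43.

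**Figure D3:**
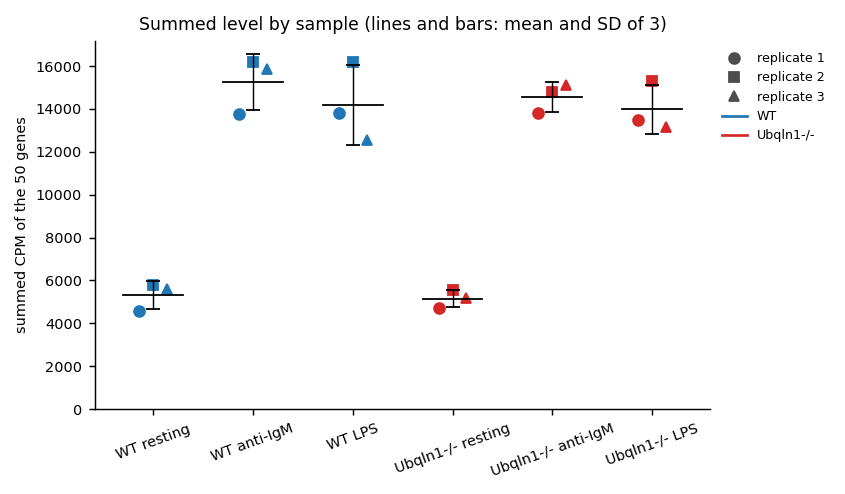
Summed CPM of the 50 genes in each library (vertical axis, from 0), by group (horizontal axis), with the marker shape for the replicate number, blue for WT, red for Ubqln1-/- cells, and lines with bars for the mean and SD of 3. The 6 resting libraries lie between 4574 and 5792 and the 12 stimulated ones between 12540 and 16180.

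Within a group the members moved as a block from library to library. The ranks below were counted for the 50 genes only, and whether all tested genes ranked the libraries alike was not examined. Replicate 1 was the lowest of the 3 resting WT libraries for 47 of 50 genes and the lowest of the 3 WT anti-IgM libraries for 46. In WT cells with LPS, replicate 3 was lowest for 49 genes and replicate 2 highest for 49. The lowest Ubqln1-/- library was replicate 1 for 43 genes at rest and 38 after anti-IgM, and replicate 3 for 36 after LPS. The highest library after anti-IgM differed between genotypes, being replicate 2 for 33 genes in WT cells and replicate 3 for 32 in Ubqln1-/- cells. The 50 genes are therefore not 50 independent readings of a condition, and a shift of their median between groups of 3 libraries can follow 1 library.

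Few members were called between LPS and anti-IgM, and the share called lower in WT cells was near that of all genes. In WT cells 1 gene was higher with LPS than with anti-IgM (17.4% of all tested genes), 7 were lower (15.0%) and 42 were not called. Among Ubqln1-/- libraries 1 gene was above (16.8%), 4 were below (14.5%) and 45 were not called. The median log2 difference was -0.04 and 0.01. The 95% interval lay within 0.5 of 0 on the log2 scale for 43 of 50 genes in WT cells and for 44 in Ubqln1-/- cells, so that for these a larger difference between the stimuli lies outside the interval. The counts depend on the fit. With the replicate number added as a block, 1 gene was higher and 12 were lower in WT cells (22.4% and 20.4% of all genes). In Ubqln1-/- cells 5 were then higher and 8 lower (22.2% and 19.6%).

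Polr1e, a Pol I subunit gene, was the 1 member called higher with LPS in both genotypes, against 14.5% of all tested genes. It measured 10.9, 12 and 9.93 RPKM at rest, 23.2, 24.7 and 25.3 RPKM with anti-IgM and 32.8, 33.6 and 24.8 RPKM with LPS in WT cells, where LPS replicate 3 lay among the anti-IgM libraries. The Ubqln1-/- levels were 9.91, 11.7 and 10.8 RPKM, then 23.4, 23.5 and 26.2 RPKM with anti-IgM and 30.9, 32.3 and 28.2 RPKM with LPS, without overlap. The ratio of LPS to anti-IgM was 1.25 in each genotype (adjusted p = 0.0233 and 0.0224, edgeR). In each genotype the call was lost without replicate 1 or 2 of either stimulus, with an adjusted p of up to 0.109 in WT cells and 0.087 in Ubqln1-/- cells.

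Fbl, Nhp2 and Nop10 were lower with LPS in both genotypes. Nop10 in WT cells was 51.1, 62.9 and 56.5 RPKM at rest, 128, 122 and 123 RPKM with anti-IgM and 102, 98.0 and 82.6 RPKM with LPS. For Ubqln1-/- cells the levels were 53.2, 56.3 and 49.4 RPKM at rest, 129, 120 and 120 RPKM with anti-IgM and 97.4, 95.2 and 89.8 RPKM with LPS. The anti-IgM libraries all exceeded the LPS libraries, and the LPS libraries all exceeded the resting ones. The difference was -0.4 in WT cells (adjusted p = 0.000867) and -0.38 in Ubqln1-/- cells (adjusted p = 0.00146), and the call held without any single library, as it did for Polr1d in WT cells and Fbl in Ubqln1-/- cells.

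Fbl differed by -0.38 in WT cells (adjusted p = 0.016, edgeR) and -0.43 in Ubqln1-/- cells (adjusted p = 0.00983), and Nhp2 by -0.37 (adjusted p = 0.0112) and -0.33 (adjusted p = 0.022). In WT cells Fbl lost the call without anti-IgM replicate 2 or 3 or LPS replicate 1 or 3, with an adjusted p of up to 0.0741, and Nhp2 without anti-IgM replicate 2 or LPS replicate 3, with up to 0.0625. Nhp2 in Ubqln1-/- cells lost it without replicate 1 or 3 of either stimulus, with up to 0.0891. The other genes lower in WT cells were Polr1d (-0.34), Npm3 (-0.39), Imp4 (-0.2) and Pes1 (-0.34). Npm3 and Imp4 each lost the call without anti-IgM replicate 2 or 3 or LPS replicate 1 or 3 (adjusted p up to 0.249 and 0.163), and Pes1 without LPS replicate 1 (0.0505). The Ubqln1-/- values of these 4 genes were -0.21, -0.36, -0.12 and -0.23 and not called, while Utp20 was called at -0.35, against -0.31 and not called in WT cells. The Utp20 call was lost without replicate 2 or 3 of anti-IgM or 1 or 3 of LPS (adjusted p up to 0.171). No difference between the genotypes in these contrasts was tested.

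The count of members lower with LPS in WT cells depended on single libraries, while 12.4% to 14.6% of all genes were called lower in these fits. It was 3 without anti-IgM replicate 2, 4 without anti-IgM replicate 3, 3 without LPS replicate 1, 11 without LPS replicate 2 and 3 without LPS replicate 3. The Ubqln1-/- count was 2 without anti-IgM replicate 3 (12.5% of all genes), LPS replicate 1 (11.4%) or LPS replicate 3 (11.9%). Of the 109 further genes of the pathway, 6 were called above their anti-IgM level with LPS in WT cells (17.4% of all genes) and 9 below it (15.0%). Without Ubqln1 the counts were 7 (16.8%) and 5 (14.5%). The largest differences in WT cells were those of Ddx24, higher by 0.47, and Exosc5, at -0.37.

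**Figure D4:**
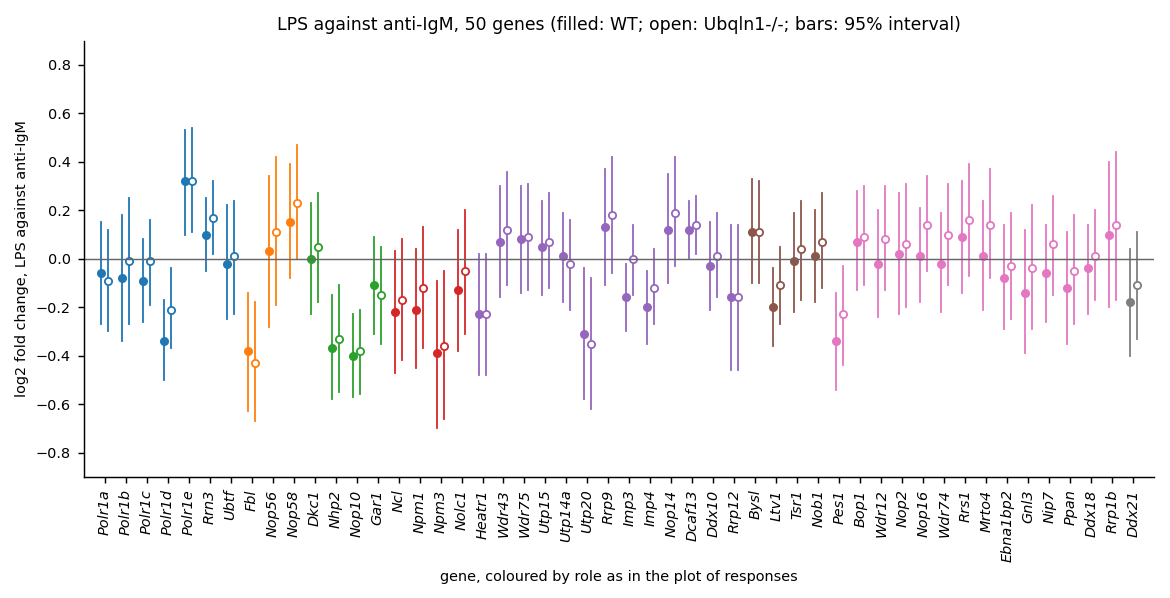
Log2 fold change of LPS against anti-IgM (vertical axis) for each of the 50 genes (horizontal axis, coloured by role), filled for WT and open for Ubqln1-/- cells, with bars for the 95% interval. Most intervals cross 0, Polr1e lies above 0 at 0.32 in both genotypes, and Fbl, Nhp2 and Nop10 lie below 0 in both.

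None of the 50 genes was called between Ubqln1-/- and WT cells. In resting cells 0 of 50 passed (0.0565% of all tested genes in either direction), with anti-IgM 0 (0.0989%) and with LPS 0 (0.0424%). By edgeR 0 members reached an unadjusted p under 0.05 in any condition, and limma with voom and DESeq2 gave 0 calls and 0 such p-values as well. The lowest adjusted p of a member was 0.997 (edgeR). The response itself was also compared between genotypes: 0 members and 0.0% of all genes differed in their response to anti-IgM, and 0 and 0.0% in that to LPS, with 140 and 220 genes of 14161 at an unadjusted p under 0.05, none of them a member. The median difference of the log2 responses was -0.02 for anti-IgM and 0.05 for LPS, and the 95% interval lay within 0.5 of 0 for 47 and 48 members.

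The estimates were small and mostly below 0. The median log2 fold change of Ubqln1-/- against WT cells was -0.06 at rest, -0.06 with anti-IgM and -0.01 with LPS. It was below 0 for 44, 47 and 34 of 50 genes, whereas 49.0%, 49.3% and 48.4% of all tested genes were below 0. The 109 further genes of the pathway leaned the same way, with 67.0%, 75.2% and 59.6% below 0. With other tools, scalings and filters the counts among the 50 genes were 44 to 50, 46 to 47 and 28 to 37. Since the members move with their library, these counts do not stand for separate observations. The resting median was -0.17 without WT replicate 1 and 0.01 without WT replicate 2, and the median with LPS was 0.08 without WT replicate 2 and -0.1 without WT replicate 3. The most negative estimates were -0.18 for Npm3 and Fbl at rest, -0.13 for Rrn3, Gnl3, Nop16 and Ltv1 with anti-IgM and -0.09 for Fbl with LPS. The highest were 0.02 for Utp14a at rest, 0.02 for Rrp1b with anti-IgM and 0.07 for Imp3 and Polr1c with LPS.

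The intervals between genotypes were narrow for most members. The 95% interval lay within 0.5 of 0 on the log2 scale for 49 of 50 genes at rest, 50 with anti-IgM and 50 with LPS, the exception being Npm3 at rest (-0.53 to 0.17). Over all members the intervals ran from -0.53 to 0.3, from -0.4 to 0.32 and from -0.35 to 0.36. The summed level of the 50 genes in Ubqln1-/- cells was 0.966, 0.954 and 0.986 times that of WT cells. Ncl differed by -0.04 (95% interval -0.29 to 0.21) at rest, -0.06 (-0.31 to 0.18) with anti-IgM and -0.02 (-0.27 to 0.23) with LPS.

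The order of the responses was alike in the genotypes, whose libraries were not shared. Across the 50 genes the log2 responses to anti-IgM in WT and Ubqln1-/- cells had a Pearson correlation of 0.989 and a Spearman correlation of 0.976, and those to LPS 0.993 and 0.988. Across all 14161 genes the Pearson values were 0.953 and 0.929. The response to anti-IgM in WT cells correlated with that to LPS in Ubqln1-/- cells at 0.933 over the 50 genes and 0.606 over all genes. These are descriptions across genes, which share library and depth.

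**Figure D5:**
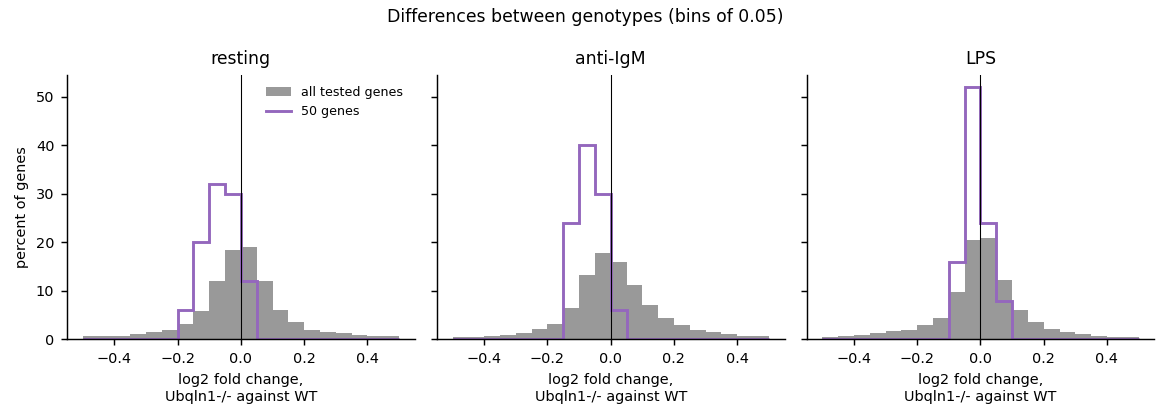
Percent of genes (vertical axis) by log2 fold change of Ubqln1-/- against WT cells (horizontal axis, bins of 0.05) at rest, with anti-IgM and with LPS, as a line for the 50 genes and a filled area for all 14161 tested genes. The 50 genes lie between -0.18 and 0.07 in all 3 panels, with medians of -0.06, -0.06 and -0.01.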

How the data were processed

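The authors prepared polyA libraries with the TruSeq RNA v2 kit, which does not mark strand, and aligned single-end reads of 50 bases to GRCm38 with GSNAP; the submitters' processing notes also name R 3.2.2 and limma. They deposited, for 28096 Entrez genes in each of 18 libraries, raw counts over exons, the exonic width and RPKM. The counting program, the annotation release and the strand setting are not given in the sources used here, so reads of overlapping and antisense genes cannot be told apart. The RPKM deposited by the authors divides by a library total, and served only as an alternative.

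Symbols came from RefSeq GRCm38.p6, which named 25035 genes (89.1%). Taf1a and Noc2l were not analysed here. Levels are RPKM or CPM from the deposited counts with TMM-scaled library sizes. edgeR 4.0.16 (TMM, filterByExpr, glmQLFit and glmQLFTest) fitted 1 term for each of the 6 groups over all 18 samples, with Benjamini-Hochberg adjustment over all tested genes and 95% intervals from the same fit, in 11 comparisons. limma 3.58.1 with voom and DESeq2 1.42.0 (R 4.3.3), RLE scaling, other filters, a replicate block, only the groups compared and each sample left out were alternatives. The scripts were tested on simulated data. Promoters and motifs were read with Python 3.11.15. Shared sequence is the percent of 50-base stretches of the GENCODE transcripts of a gene that occur in another gene.

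Groups came from the sample labels, in which replicate 1 carries no number beside those numbered 2 and 3. Replicates differed by more than counting noise. That libraries come from separate experiments is stated for the RNASeq data as a whole, not in the labels of single samples; were they not, the p-values would measure technical spread.

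Every sample is given for the member with the highest mean RPKM of each role and for the members with the largest and smallest log2 fold change of each stimulation comparison in WT cells. Also named are members called lower, not called or lowest and highest by comparison, the extremes of each further list after anti-IgM, the E-box genes, and, chosen after their values were seen, other members given as examples of their role and the genes Exosc5 and Ddx24. Members and lists were chosen with earlier results of these data known.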

Additional observations from a re-analysis of the deposited data

How the results depend on the processing

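All 50 members rose after anti-IgM in both genotypes and after LPS in Ubqln1-/- cells under every alternative. In WT cells with LPS the count was 48 to 50 when each library was left out, 49 with no filter on low counts and 48 with only the groups compared in the fit. Medians over those fits ran from 1.37 to 1.53 (anti-IgM, WT), 1.42 to 1.55 (anti-IgM, Ubqln1-/-), 1.29 to 1.48 (LPS, WT) and 1.33 to 1.5 (LPS, Ubqln1-/-). No value changed its direction past the threshold. The counts of LPS against anti-IgM did move. With each library left out in turn, 0 to 2 genes were higher and 3 to 11 lower in WT cells, against 0 to 1 and 2 to 5 without Ubqln1. Of all genes, 14.2% to 16.6% were higher and 12.4% to 14.6% lower in these WT fits. The Ubqln1-/- shares were 13.6% to 14.9% and 11.4% to 12.5%. With only the groups compared in the fit, 0 were above and 5 below in WT cells (13.1% and 11.5% of all genes), and in Ubqln1-/- cells 4 were above and 9 below (17.5% and 16.8%). The cause was not tested.

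Same-numbered samples deviated together on average (mean r = 0.266 over 45 pairs, against -0.132 for other numbers). The lowest of these pairs was at 0.055, and 18 of 18 samples correlated best with their own number. The labels do not say that a number marks a shared experiment, so the counts in the Results come from a fit without pairing. The paper describes single-term limma models but names paired T tests for figures from these data. Should equal numbers mark pairs, that fit leaves the pairing out. With the replicate number as a block, 1 member was higher with LPS and 12 were lower in WT cells (22.4% and 20.4% of all genes), and 5 lay above and 8 below in Ubqln1-/- cells (22.2% and 19.6%). Between genotypes the block gave 0 calls, with 2 members at an unadjusted p under 0.05 with anti-IgM.

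The deposited RPKM, multiplied by exonic width, gives CPM scaled to the authors' library total instead of the TMM-scaled size. Summed over the 50 genes it was 4660, 13480 and 11900 in WT cells at rest, with anti-IgM and with LPS. In Ubqln1-/- cells it was 4464, 12930 and 11760. With the wider E-box set of CACGTG and its variants CACGCG and CGCGTG, 50.0% of the 44 promoters held a match, against 29% of the promoters of tested genes. The share was 38.0% for genes called higher after anti-IgM in WT cells and 42.9% for the further genes of the pathway. With 3 libraries a group, differences between genotypes smaller than the intervals given above were not detectable for single members.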
